A study of Mus musculus with 24 samples.

Results

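The aquaporin genes Aqp1, Aqp2, Aqp3, Aqp4, Aqp6, Aqp7 and Aqp11 were examined in RNA-seq libraries of whole mouse left kidneys. The rule takes them by gene name and uses no measured value, though the set was proposed with earlier results of these data known. They are 7 of the 14407 genes of the deposited gene table. All 7 passed the filter on low values, which 13127 genes passed. All mice were wildtype and had either sham surgery or UUO, unilateral ureteral obstruction, the closure of 1 ureter, which keeps urine from leaving that kidney. Each surgery was combined with vehicle, with an early or with a late intervention of istradefylline, which blocks the adenosine receptor that Adora2a encodes. This gave 3 sham groups (sham vehicle, sham early, sham late) and 3 obstructed groups (UUO vehicle, UUO early, UUO late) of 4 libraries, 24 together. The labels state neither strain, age, dose nor days of treatment, nor whether a library stands for its own mouse, so p-values measure the spread between these libraries, which may be technical.

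Aquaporins are membrane channels that let water, and in some members glycerol, pass along its gradient. In the kidney Aqp1 carries water across proximal tubule and thin descending limb cells and also lies in the endothelium of the vasa recta. In collecting duct principal cells the hormone vasopressin acts through its receptor Avpr2 and cyclic AMP to move Aqp2 into the apical membrane and to raise its transcription, and water leaves these cells through Aqp3 and Aqp4 on the basolateral side. Aqp6 is an intracellular channel of intercalated cells, Aqp7 a glycerol channel of proximal straight tubules and of fat cells, and Aqp11 an intracellular channel of proximal tubule cells whose loss in mice gives cystic kidneys.

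The start site windows of Aqp2, of its neighbour Aqp6 and of Aqp3 are printed because Aqp2 shares a locus with one and a cell type with the other, and the 3 genes differed in their response to obstruction. The RefSeq table (GRCm38.p6) held windows for 6 of the 7 genes, each with 250 bases before and 50 bases after the start site. Capitals mark the searched motifs, read on both strands.
Aqp2, chr15:99578806-99579105, plus strand: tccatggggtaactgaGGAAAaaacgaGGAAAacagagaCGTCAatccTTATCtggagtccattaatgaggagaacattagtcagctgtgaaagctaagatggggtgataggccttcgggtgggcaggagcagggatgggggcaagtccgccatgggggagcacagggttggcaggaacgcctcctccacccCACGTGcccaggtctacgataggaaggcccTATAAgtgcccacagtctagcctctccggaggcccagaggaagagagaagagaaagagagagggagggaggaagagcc
Aqp6, chr15:99600950-99601249, plus strand: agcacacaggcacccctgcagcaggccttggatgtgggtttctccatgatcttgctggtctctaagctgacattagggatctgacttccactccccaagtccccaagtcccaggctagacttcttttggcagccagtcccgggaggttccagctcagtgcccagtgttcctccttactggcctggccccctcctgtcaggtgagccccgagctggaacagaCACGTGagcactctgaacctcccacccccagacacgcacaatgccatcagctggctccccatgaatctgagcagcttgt
Aqp3, chr4:41098134-41098433, minus strand: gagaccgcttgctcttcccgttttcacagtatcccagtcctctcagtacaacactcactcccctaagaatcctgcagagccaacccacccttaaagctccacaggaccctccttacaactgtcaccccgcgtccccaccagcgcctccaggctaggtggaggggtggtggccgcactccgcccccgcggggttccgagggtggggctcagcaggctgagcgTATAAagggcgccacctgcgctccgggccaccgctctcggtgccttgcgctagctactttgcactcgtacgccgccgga
The motifs, picked after the Aqp2 window had been read, were the cyclic AMP response element core TGACG, the GATA site GATAA, the TATA box TATAA, the HNF1 half-site GTTAAT, the NFAT core GGAAA and the E-box CACGTG, each with its reverse complement. The Aqp2 window held a reversed TGACG at -211, a reversed GATAA at -202, TATAA at -28, GGAAA at -234 and -223, and CACGTG at -58. The Aqp3 window held TATAA at -29 and no other of these motifs, and the Aqp6 window held CACGTG at -29 alone. The Aqp6 window ends at 99601249, before the measured gene begins at 99601400, so its positions refer to another start site than that of the measured gene. Of 32851 mouse windows of this length, 20.8% held TGACG, 25.4% GATAA, 24.9% TATAA, 7.10% GTTAAT, 61.3% GGAAA and 7.15% CACGTG. Each motif thus occurs in many windows, GTTAAT and CACGTG in the fewest, and a match is a description only.

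Levels are given in FPKM, fragments scaled for transcript length and library size, which allows genes to be compared per length. In the 12 sham libraries Aqp1 had the highest mean level, 306 ± 39.2 FPKM (SD, n = 12), and Aqp2 followed at 183 ± 49.2 FPKM. Aqp3 was at 50.2 ± 8.19, Aqp6 at 28.6 ± 4.97, Aqp4 at 11.4 ± 5.56, Aqp7 at 11.1 ± 1.06 and Aqp11 at 6.84 ± 0.882 FPKM. Aqp1 was above Aqp2 in 11 of 12 sham libraries, Aqp2 above Aqp3 and Aqp3 above Aqp6 in 12 of 12, and Aqp6 above Aqp4 in 11 of 12. Aqp4 and Aqp7 did not differ beyond their spread, since Aqp4 was the higher in 5 of 12. In the 12 UUO libraries Aqp1 still led, at 86.1 ± 27.3 FPKM, and was above Aqp2 in 12 of 12. Aqp2 at 24.2 ± 16.5, Aqp6 at 17.7 ± 7.85 and Aqp3 at 17.3 ± 8.49 FPKM overlapped, with Aqp2 above Aqp6 in 9 of 12 and Aqp6 above Aqp3 in 7 of 12 libraries. Aqp7 at 5.89 ± 1.81, Aqp4 at 4.36 ± 6.60 and Aqp11 at 1.60 ± 0.600 FPKM came last. The gene value of Aqp11 is spread over an exon union of 9418 bases, while its main transcript of 3737 bases was listed at 16.9 ± 2.23 FPKM in sham libraries and at 3.98 ± 1.52 FPKM after obstruction.

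The genes lie on 5 chromosomes of the mouse build GRCm38. Aqp1 (ENSMUSG00000004655.5) spans 55336432 to 55348555 on chromosome 6, and Aqp11 (ENSMUSG00000042797.9) spans 97724006 to 97738289 on chromosome 7. Aqp4 (ENSMUSG00000024411.9) is at 15389394 to 15403684 on chromosome 18. Aqp2 (ENSMUSG00000023013.4, 99579056 to 99584545) and Aqp6 (ENSMUSG00000043144.5, 99601400 to 99605477) are neighbours on the plus strand of chromosome 15, with 16855 bases between them, where Aqp5 lies. Aqp7 (ENSMUSG00000028427.13, 41033074 to 41048139) and Aqp3 (ENSMUSG00000028435.8, 41092722 to 41098183) are neighbours on the minus strand of chromosome 4, 44583 bases apart.

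The summed level of the 7 genes was 597 ± 73.6 FPKM in sham and 157 ± 40.9 FPKM in UUO libraries. Aqp1 made up 51.5% ± 5.65 of this sum in sham and 54.2% ± 10.7 in UUO libraries. The share of Aqp2 was 30.3% ± 5.61 in sham and 14.0% ± 7.68 in UUO libraries, and that of Aqp6 was 4.83% ± 0.877 and 11.5% ± 5.21.

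**Figure D1:**
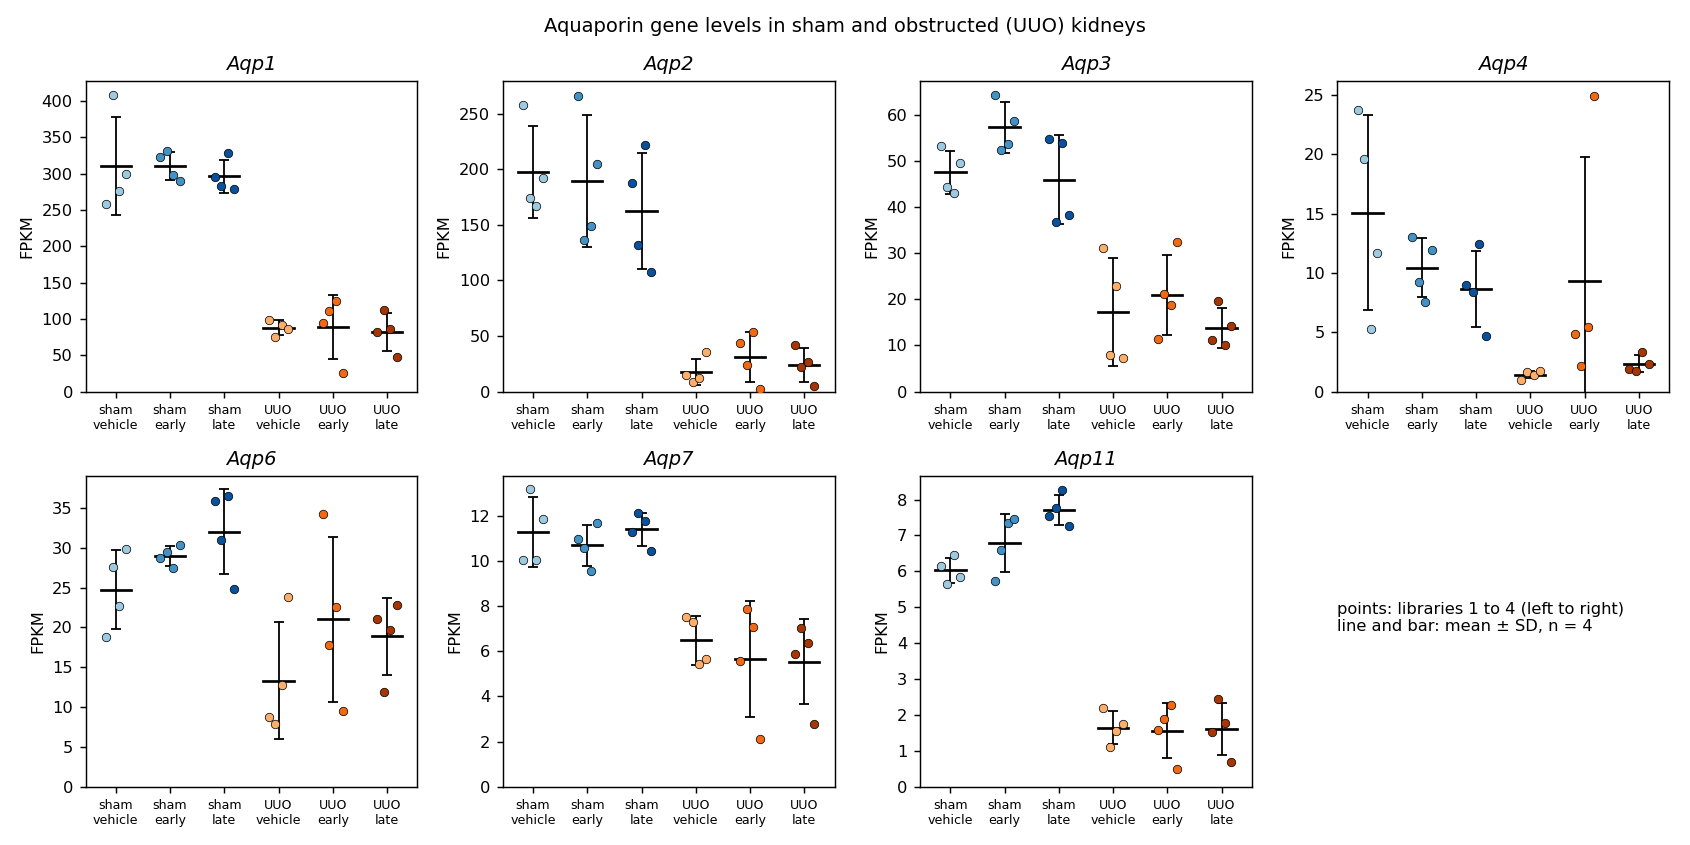
FPKM of each aquaporin gene in the 24 libraries, by group, on axes that start at 0; points are libraries 1 to 4 from left to right, and the line and bar are the mean and SD of 4, cut at 0 where the bar would pass below. Aqp1, Aqp2, Aqp3, Aqp7 and Aqp11 are lower in all 12 UUO libraries than in any sham library, and UUO early library 4 stands apart for Aqp4 at 24.9 FPKM. The share of all tested genes lower in all 12 is not given here. Within vehicle, the early and the late course, 14.7, 15.7 and 15.4% of tested genes were lower without overlap.

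Kidneys with obstruction had less RNA of all 7 aquaporin genes. Averaged over the 3 treatments, each of the 7 fell (limma, Benjamini-Hochberg adjustment over 13127 genes, threshold 0.05), while 20.8% of all tested genes fell and 62.7% rose, and the median change of all tested genes was 0.41 on the log2(FPKM + 1) scale, the scale of every change below. The median change of the 7 was -1.61. When FPKM were rescaled by median-of-ratios size factors, all 7 still fell, while 39.4% of all tested genes fell and 40.1% rose, with a median change of 0.0017. With equal sums all 7 fell too, while 15.6% of all tested genes fell and 70.1% rose, with a median change of 0.56. The libraries of whole kidneys cannot tell fewer cells of a type from less RNA per cell.

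Aqp2, the vasopressin-regulated apical channel, changed most. Its level in sham vehicle libraries 1 to 4 was 258, 174, 167 and 192 FPKM, and in UUO vehicle libraries 15.3, 8.94, 12.2 and 35.2 FPKM. Sham early libraries had 266, 137, 149 and 205 FPKM against 43.9, 23.9, 53.9 and 2.58 FPKM in UUO early. Sham late libraries had 188, 132, 222 and 107 FPKM against 41.6, 21.8, 26.4 and 5.09 FPKM in UUO late. No UUO library reached the lowest sham library, and library 4 was the lowest of its group in UUO early and in UUO late. The mean obstruction effect was -3.20 (SE 0.38, adjusted p = 8.35e-08), and the UUO mean was 13.2% of the sham mean. The lowest value, in UUO early library 4, corresponds to about 30.4 fragments by the depth estimate.

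Aqp3, the basolateral water and glycerol channel of the same cells, fell by 1.61 (SE 0.20, adjusted p = 1.84e-07). Sham libraries ranged from 36.8 to 64.3 FPKM with a median of 52.7, and UUO libraries from 7.35 to 32.3 FPKM with a median of 16.5, without overlap. UUO vehicle libraries were at 31.1, 7.87, 22.9 and 7.35 FPKM, a spread wider than in any sham group.

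Aqp4, which shares the basolateral side and is also abundant in the plasma membrane of skeletal muscle fibres, fell by 1.55 (SE 0.27, adjusted p = 1.80e-05). Sham vehicle libraries had 23.7, 19.6, 5.29 and 11.7 FPKM and UUO vehicle libraries 1.00, 1.64, 1.35 and 1.73 FPKM. The UUO vehicle mean was 9.49% of that in sham vehicle, and the groups did not overlap. UUO early libraries were at 4.81, 2.16, 5.43 and 24.9 FPKM, so library 4 lay above every sham library, and UUO late libraries were at 1.90, 1.75, 3.36 and 2.34 FPKM.

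Aqp1, the constitutive channel of the proximal tubule, fell by 1.90 (SE 0.19, adjusted p = 6.15e-09). Sham libraries ranged from 258 to 408 FPKM with a median of 297, and UUO libraries from 26.1 to 124 FPKM with a median of 89.1. The lowest UUO values were those of UUO early library 4 at 26.1 and UUO late library 4 at 47.9 FPKM. Aqp11 fell by 1.62 (SE 0.12, adjusted p = 3.67e-11), from a sham range of 5.64 to 8.26 FPKM to a UUO range of 0.502 to 2.44 FPKM. Neither gene had a UUO library that overlapped the sham range.

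Aqp7, the glycerol channel, fell by 0.87 (SE 0.14, adjusted p = 8.78e-06), from 9.54 to 13.2 FPKM in sham to 2.09 to 7.87 FPKM in UUO libraries. Aqp6, the intercalated cell channel, changed least, at -0.76 (SE 0.18, adjusted p = 5.13e-04). Its sham libraries ranged from 18.8 to 36.5 FPKM and its UUO libraries from 7.88 to 34.2 FPKM, and 6 of 12 UUO libraries lay below the lowest sham library. UUO early library 1 was at 34.2 FPKM, above each sham early library.

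**Figure D2:**
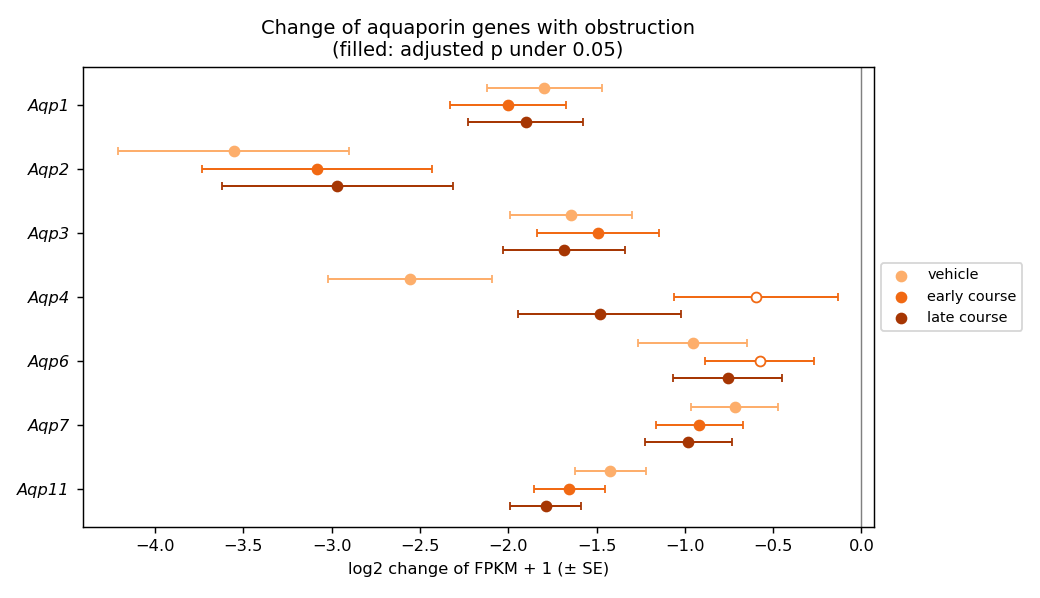
Change of each aquaporin gene from sham to UUO under vehicle, the early and the late course, as log2 change of FPKM + 1 with its SE; filled points have an adjusted p under 0.05. Every point lies below 0, and Aqp4 and Aqp6 under the early course are the 2 open points.

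By treatment, 7 of 7 genes fell in UUO vehicle against sham vehicle (16.7% of all tested genes fell), 5 of 7 in UUO early against sham early (17.3%) and 7 of 7 in UUO late against sham late (16.5%). The libraries did not overlap for 6, 5 and 7 of the 7 genes, beside 14.7, 15.7 and 15.4% of tested genes that were lower without overlap. Under vehicle the change was -3.56 (SE 0.65, adjusted p = 7.31e-05) for Aqp2, -2.56 (SE 0.46, adjusted p = 6.47e-05) for Aqp4 and -1.80 (SE 0.33, adjusted p = 6.65e-05) for Aqp1. In plain FPKM Aqp2 and Aqp4 were close, with UUO vehicle means at 9.04% and 9.49% of the sham vehicle means. The gap between their log2 changes thus depends in part on the 1 FPKM added to the low Aqp4 values. Aqp3 was at -1.64 and Aqp11 at -1.42, but in plain FPKM Aqp11 fell more, to 27.4% of the sham vehicle mean against 36.5% for Aqp3. Aqp6 at -0.95 (adjusted p = 0.0101) and Aqp7 at -0.72 (adjusted p = 0.0146) changed least.

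Under the early course Aqp2 changed by -3.08 (adjusted p = 2.65e-04) and Aqp1 by -2.0 (adjusted p = 1.54e-05). Aqp4 at -0.60 (SE 0.46, adjusted p = 0.255) and Aqp6 at -0.58 (SE 0.31, adjusted p = 0.101) did not pass. Without UUO early library 4, Aqp4 passed at -1.20 (adjusted p = 0.0068), and over all the alternatives its change ran from -1.20 to -0.19 and its adjusted p from 0.0068 to 0.729. Without UUO early library 1, Aqp6 passed at -0.84 (adjusted p = 0.0182), and under median-of-ratios scaling at -1.04 (adjusted p = 0.0045), within a range of adjusted p from 0.0045 to 0.498 over the alternatives. Under the late course Aqp2 changed by -2.97 (adjusted p = 3.51e-04), Aqp4 by -1.48 (adjusted p = 0.0068) and Aqp6 by -0.76 (adjusted p = 0.0322). The Aqp6 call was lost without UUO late library 2 (adjusted p = 0.122), without sham late library 1, 2 or 3 (adjusted p = 0.0715, 0.0505 and 0.0740), and with equal sums (adjusted p = 0.142). Its adjusted p ran from 4.77e-04 to 0.142 over the alternatives.

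The ratios of the genes to each other within a library also differed between surgeries, on the log2(FPKM + 1) scale. Aqp2 exceeded Aqp6 by 2.61 ± 0.475 in sham (SD, n = 12) and by 0.17 ± 0.969 in UUO libraries, so this ratio was 2.44 lower after obstruction, and all 12 UUO libraries lay below the lowest sham library. Aqp2 over the mean of the principal cell list was 2.93 lower and Aqp1 over Aqp7 1.03 lower, again with 12 of 12 UUO libraries below the sham range. The principal cell list holds genes that rose, Gata3 and Npnt among them, as well as genes that fell. Ratios over this list therefore do not measure Aqp2 or Aqp3 against the number of principal cells. Aqp2 over Aqp3 was 1.60 lower, with 8 of 12 UUO libraries below the sham range. It ranged from -3.22 in UUO early library 4 to 2.11 in UUO vehicle library 4, which lay inside the sham range. Aqp3 over the principal cell list was 1.33 lower, Aqp3 over Aqp7 0.73 lower and Aqp1 over Aqp11 0.28 lower. The last of these depends on the 1 FPKM added to the low Aqp11 values. In plain FPKM Aqp11 fell more than Aqp1, with UUO means at 23.5% and 28.2% of the sham means.

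These 7 ratios were added after the data had been seen and were tested in 2 forms. The first form was an exact two-sided permutation test of 4 against 4 libraries within each treatment, 21 tests in all, where the smallest possible p is 0.0286. That p was reached by 10 of the 21, and none passed after Benjamini-Hochberg adjustment, the lowest adjusted p being 0.06. The second form was added after that outcome was seen. It averaged the difference over the 3 treatments and permuted the surgery labels within each treatment, with 343000 relabellings, and 7 of 7 ratios passed after adjustment over the 7. By this form the exact p was 5.83e-06, the smallest it can give, for Aqp2 over Aqp6, Aqp1 over Aqp7 and Aqp2 over the principal cell list. It was 0.0022 for Aqp2 over Aqp3, 0.00014 for Aqp3 over the list, 0.0134 for Aqp3 over Aqp7 and 0.0066 for Aqp1 over Aqp11. Adjusted over all 28 tests together, 10 of the 21 and 7 of the 7 passed. Those 10 stood at an adjusted p of 0.047 there only because the small p-values of the second form joined the adjustment. They are not taken as passes, since both forms tested the same ratios in the same libraries. Because the second form was chosen knowing that the first had passed none, its p-values are weaker evidence than their size shows.

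**Figure D3:**
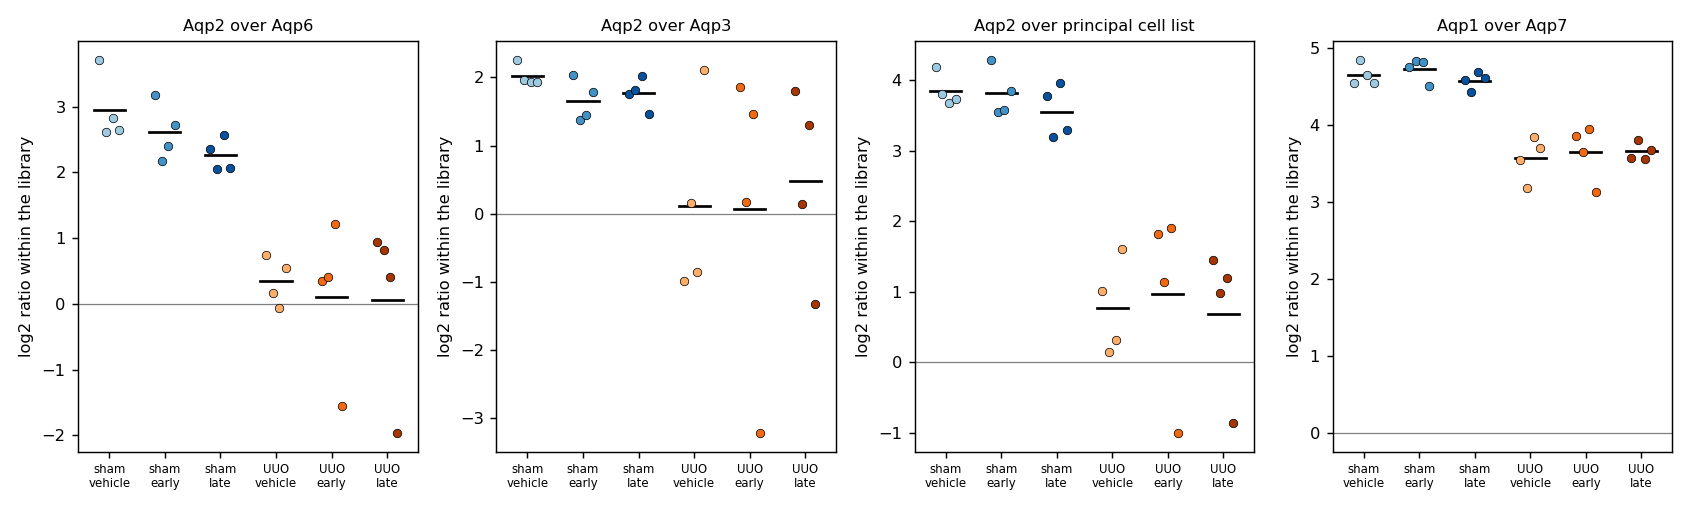
Log2 ratio of FPKM + 1 within each library for Aqp2 over Aqp6, Aqp2 over Aqp3, Aqp2 over the mean of the principal cell list and Aqp1 over Aqp7; points are libraries 1 to 4 and lines are group means. The ratios over Aqp6, the principal cell list and Aqp7 do not overlap between surgeries, while Aqp2 over Aqp3 does.

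The drug comparisons asked whether either course changed the aquaporin genes. None of the 7 passed the threshold in either course against vehicle, in either surgery, between the courses, or in the interaction of course and surgery, by limma. The tested genes that passed made up 0.0152% in UUO early against UUO vehicle, 0.137% in UUO late against UUO vehicle, 0.0305% in UUO early against UUO late, 0.00762% in sham early against sham vehicle, 1.42% in sham late against sham vehicle and 0.00762% in sham early against sham late. In the interactions they made up 0.00762% for the early and 0.0305% for the late course. At an unadjusted p under 0.05 only Aqp4 of the 7 genes passed. It did so in UUO early against UUO vehicle, in UUO early against UUO late and in the early interaction. Of 13127 tested genes, 1161, 1113 and 713 passed at this unadjusted p in these comparisons, in that order.

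Aqp4 was 1.62 higher in UUO early than in UUO vehicle (SE 0.46, unadjusted p = 0.0022, adjusted p = 0.346), and the 4 libraries of UUO early lay above the 4 of UUO vehicle. Over the alternatives this change ran from 1.02, without UUO early library 4, to 2.06, and its adjusted p from 0.240 to 0.944. Aqp4 was also 1.18 higher in UUO early than in UUO late (adjusted p = 0.529), from 0.58 without UUO early library 4 to 1.59 without UUO early library 2, and its early interaction was 1.96 (SE 0.66, adjusted p = 0.865). In UUO late it was 0.45 higher than in UUO vehicle (SE 0.46, adjusted p = 0.823), and those libraries did not overlap either. Tested genes that were higher without overlap made up 1.86% in UUO early and 3.11% in UUO late against UUO vehicle.

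The other genes gave small differences with wide errors. Against UUO vehicle, Aqp2 changed by 0.38 (SE 0.65, adjusted p = 0.890) in UUO early and by 0.27 (SE 0.65, adjusted p = 0.935) in UUO late. Aqp6 changed by 0.62 (SE 0.31, adjusted p = 0.584) and 0.56 (SE 0.31, adjusted p = 0.590). On leaving out 1 library these ran from 0.35, without UUO early library 1, to 0.93 and from 0.38, without UUO vehicle library 2, to 0.87. Aqp1, Aqp3, Aqp7 and Aqp11 changed by between -0.26 and 0.41. In sham kidneys Aqp11 was 0.31 higher in sham late than in sham vehicle (SE 0.20, adjusted p = 0.481). Its 4 sham late libraries, from 7.27 to 8.26 FPKM, lay above the sham vehicle range of 5.64 to 6.46 FPKM, beside 2.06% of tested genes that were higher without overlap. Misses of the threshold do not show that the courses left these genes unaltered.

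**Figure D4:**
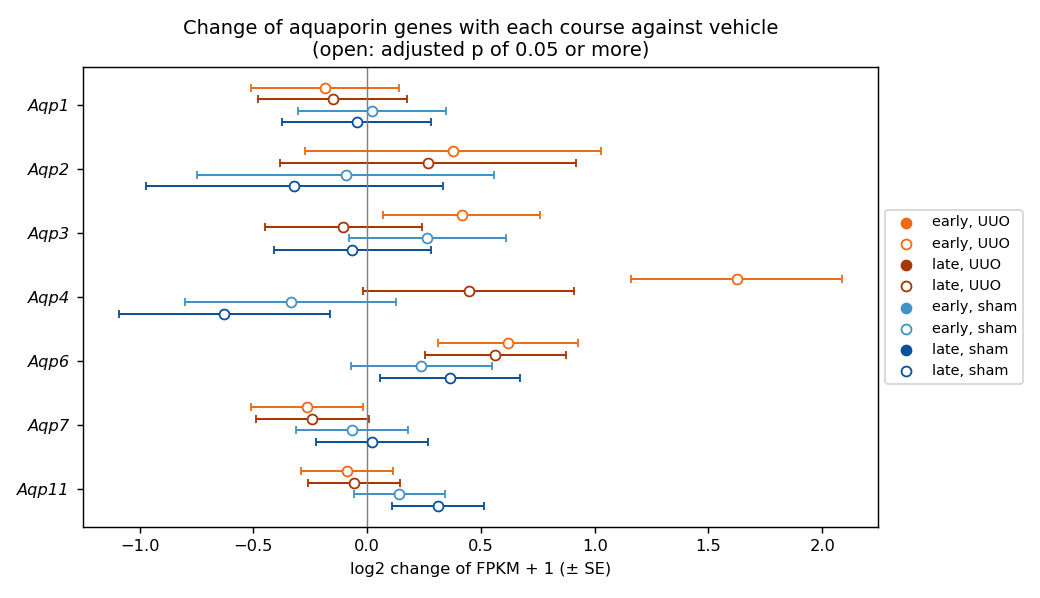
Change of each aquaporin gene with the early and the late course against vehicle in UUO and in sham kidneys, as log2 change of FPKM + 1 with its SE. All points are open, meaning an adjusted p of 0.05 or more, and Aqp4 under the early course in UUO lies farthest from 0 at 1.62.

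The counts of the lists below are read against the shares of all tested genes, 62.7% risen and 20.8% fallen on the deposited scale. Of 14 tested genes of the vasopressin signalling list 10 rose and 2 fell in the mean obstruction effect (median 0.49, beside 0.41 for all tested genes). With median-of-ratios scaling 4 rose and 6 fell, and with equal sums 12 rose and 2 fell. The share that rose was near that of all tested genes, so the count says nothing particular to this list. Avpr2, the vasopressin receptor, fell from 7.56 ± 1.82 to 2.57 ± 1.11 FPKM (-1.30, SE 0.16). Ptger3, a prostaglandin E2 receptor coupled to lower cyclic AMP, fell from 6.79 to 3.24 FPKM (-0.87). Ptger4, a prostaglandin E2 receptor coupled to higher cyclic AMP, rose from 0.427 to 5.28 FPKM (2.12), the adenylyl cyclase Adcy3 rose from 0.279 to 2.05 FPKM (1.25), and the kinase anchor Akap7 rose from 2.39 to 4.02 FPKM (0.56). These 5 genes kept their direction under both scalings.

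Of 14 tested genes of Aqp2 trafficking and turnover 9 rose and 3 fell (median 0.29), again near the share of all tested genes, but with median-of-ratios scaling 3 rose and 8 fell, and with equal sums 11 rose and 1 fell. The membrane fusion protein Stx4a rose from 18.4 to 34.9 FPKM, the membrane linker Ezr from 104 to 164 FPKM, the recycling GTPase Rab11a from 22.3 to 36.4 FPKM and the vesicle protein Vamp2 from 19.9 to 29.5 FPKM, and the sign of these 4 held under both scalings.

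Of 15 tested transcription factors 8 rose and 4 fell (median 0.26, below the 0.41 of all tested genes), and with median-of-ratios scaling 5 rose and 7 fell. Gata3, a factor of the collecting duct lineage, rose from 4.08 ± 0.605 to 12.8 ± 3.89 FPKM (1.40, SE 0.13). Elf3, an epithelial factor, rose from 11.4 to 68.1 FPKM (2.49), Hoxb7, a ureteric bud lineage factor, from 18.9 to 34.9 FPKM (0.87), and Ppara, a factor of fatty acid oxidation, fell from 2.82 to 0.906 FPKM (-1.0). Nfat5, the factor that responds to high tonicity, rose from 1.62 ± 0.701 to 3.53 ± 2.41 FPKM (0.70, SE 0.22, adjusted p = 0.0061). Elf5, a principal cell factor, was not tested and had 0.801 ± 0.729 FPKM in sham and 0.283 ± 0.238 FPKM in UUO libraries.

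Of 6 tested organic osmolyte and tonicity genes 4 rose, near the share of all tested genes, and 2 fell; with median-of-ratios scaling 0 rose and 3 fell, and with equal sums 4 rose and 1 fell. The heat shock genes Hspa4l (2.31 to 3.26 FPKM) and Hspa1b (15.8 to 21.4 FPKM) rose, while Slc14a2, the urea transporter of the inner medulla, fell from 5.67 to 2.52 FPKM and Slc5a3, the inositol carrier, from 10.2 to 7.40 FPKM. Of 7 glycerol genes 1 rose and 5 fell (median -0.79). Gk, the glycerol kinase, fell from 45.2 to 13.2 FPKM (-1.78), the glycerol phosphate dehydrogenases Gpd1 from 163 to 44.6 FPKM (-1.90) and Gpd2 from 7.90 to 5.30 FPKM (-0.53), and the lipase Pnpla2 from 46.4 to 26.0 FPKM (-0.79).

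Most markers of the segments that hold these channels fell, with the smallest median change in the principal cell list. All 12 proximal tubule genes fell (median -2.14), among them the amino acid transporter Slc7a13 (287 to 29.4 FPKM), the endocytic receptors Lrp2 (77.1 to 19.5 FPKM) and Cubn (23.7 to 7.24 FPKM) and the glucose transporter Slc5a2 (108 to 25.9 FPKM). Of 10 loop and medullary genes 8 fell and 2 rose (median -0.87), with the chloride channel subunit Bsnd at 23.2 and 8.24 FPKM, the cotransporter Slc12a1 at 109 and 39.0 FPKM and the tight junction protein Cldn10 at 75.9 and 34.8 FPKM in sham and UUO libraries. Of 9 principal cell genes 6 fell and 2 rose (median -0.42), with the sodium channel subunit Scnn1a falling from 21.0 to 11.6 FPKM and the matrix protein Npnt rising from 20.0 to 36.5 FPKM. With median-of-ratios scaling 7 of these 9 fell and 2 rose, and with equal sums 4 fell and 2 rose. Of 11 intercalated cell genes 8 fell and 1 rose (median -0.77), with the anion exchangers Slc4a1 (8.23 to 0.755 FPKM) and Slc26a4 (23.6 to 6.40 FPKM), the proton pump subunit Atp6v1c2 (14.7 to 5.15 FPKM) and the receptor kinase Insrr (4.70 to 1.46 FPKM) among those that fell. Under both scalings all 12 proximal tubule genes and 8 of the 10 loop and medullary genes fell. Of the 11 intercalated cell genes 11 fell with median-of-ratios scaling and 8 with equal sums. The part of tubule cell content in the aquaporin changes was not tested.

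Markers of other cells also moved. All 8 macrophage genes rose (median 4.10, for example C1qa from 11.7 to 344 FPKM and Adgre1 from 0.455 to 19.3 FPKM), and so did all 8 fibroblast genes (median 3.22, for example Col3a1 from 2.06 to 97.8 FPKM). Of 9 endothelial genes 8 rose and 0 fell, beside 62.7% of all tested genes that rose, such as Cdh5 from 3.72 to 11.9 FPKM, while Aqp1, also an endothelial gene, fell, and with median-of-ratios scaling 4 rose and 1 fell. Of 7 adipocyte genes 6 rose, such as Adipoq from 2.55 ± 5.60 to 8.80 ± 7.22 FPKM, with a wide spread between libraries. Aqp7, also a fat cell gene, fell, and the part of fat in these values was not tested. None of 5 erythroid genes passed on the deposited scale, with Hbb-bs at 209 and 260 FPKM, but with median-of-ratios scaling 3 of the 5 fell and with equal sums 1 rose.

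UUO early library 4 differed from the rest of its group. The summed level of 8 skeletal muscle genes was 3530 FPKM there, 72.3 and 170 FPKM in UUO early libraries 1 and 2, and 3.4 FPKM in library 3, while the other UUO libraries were at 4.9 to 7.3 and the sham libraries at 1.3 to 2.7 FPKM. UUO early library 4 also had the highest Aqp4 level, 24.9 FPKM. Aqp4 in UUO early libraries 1, 2 and 3 was at 4.81, 2.16 and 5.43 FPKM, each above the UUO vehicle libraries. UUO early library 4 and UUO late library 4 had the lowest proximal tubule sums, 162 and 258 FPKM, beside the lowest Aqp1, Aqp2, Aqp7 and Aqp11 levels of the UUO libraries. Their macrophage sums, 3554 and 2426 FPKM, were the highest of all libraries. The part of these cell contents in the results was not tested. All 7 genes still fell in the mean obstruction effect without both libraries, and without UUO early libraries 1, 2 and 4.

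Urothelial and keratin genes, all 8 of which rose (median 2.87), also varied beside Aqp3, which is expressed in stratified epithelia. The summed level of the 8 genes in UUO vehicle libraries 1 to 4 was 545, 222, 417 and 71.5 FPKM beside Aqp3 at 31.1, 7.87, 22.9 and 7.35 FPKM. In UUO early libraries it was 119.7, 443, 195 and 582 FPKM beside Aqp3 at 11.4, 21.0, 18.8 and 32.3 FPKM. In UUO late libraries it was 92.8, 345, 295 and 403 FPKM beside Aqp3 at 11.2, 19.7, 10.1 and 14.2 FPKM. The order of the libraries was shared in UUO vehicle and in UUO early but not in UUO late. The genes of the list did not move as 1, since UUO early library 4 had the highest Krt5 of its group, a basal keratin, at 335 FPKM, and the lowest Upk3a, a urothelial plaque gene, at 7.32 FPKM. The part of urothelium in the Aqp3 level was not tested.

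**Figure D5:**
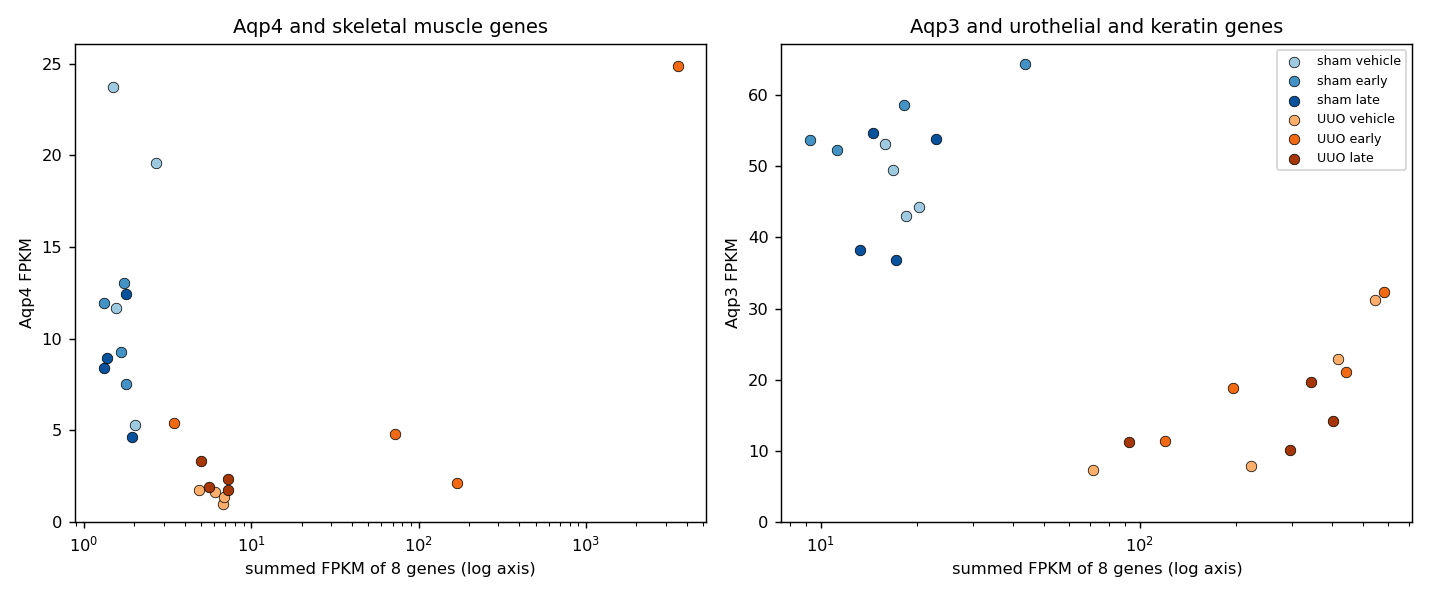
Aqp4 FPKM against the summed FPKM of 8 skeletal muscle genes, and Aqp3 FPKM against the summed FPKM of 8 urothelial and keratin genes, 1 point per library, with log horizontal axes. UUO early library 4 lies at 3530 FPKM of muscle genes and 24.9 FPKM of Aqp4, and all UUO libraries lie to the right of the sham libraries and at or below 32.3 FPKM of Aqp3.

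Within groups the members followed different genes. With group means removed over 24 libraries, the genes near to Aqp1 included Acss2 and Cldn10 (Pearson r 0.949 and 0.947), and the 3 nearest to Aqp11 were Nat8f1, Pecr and Sord (0.970, 0.967 and 0.963) and to Aqp7 Vil1, Hnf4a and Btd (0.952, 0.945 and 0.942). Aqp2 was nearest to Apela, Cldn19 and Rhcg (0.905, 0.894 and 0.891), Aqp3 to Foxq1, Gsta4 and Ndrg2 (0.771, 0.769 and 0.761), Aqp4 to Ehf, Pdcd10 and Dram1 (0.887, 0.849 and 0.848) and Aqp6 to Rcan2, Pam and Atxn7l3b (0.841, 0.825 and 0.804). These values describe 24 libraries, and UUO early library 4 is 1 of the 2 farthest from the median for each member but Aqp3. Without the 2 libraries farthest from the median, r for the first gene was 0.940 for Aqp11, 0.859 for Aqp7, 0.849 for Aqp2, 0.596 for Aqp3, 0.780 for Aqp4 and 0.768 for Aqp6.

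Aqp7 and Aqp11 each had 2 listed transcripts. The transcript Aqp7-202 (2154 bases) was at 12.9 ± 3.58 FPKM in sham libraries and at 7.10 ± 2.49 FPKM after obstruction. Aqp7-201 (2527 bases) took 54.5% and 46.4% of the gene's summed transcript FPKM in sham early libraries 1 and 2, 26.6% in sham late library 4 and 51.7% in UUO late library 2, and at most 13.7% in the other 20 libraries. The high libraries were few and fell in 3 groups. Aqp11-201 (896 bases) was above 0 in 12 of 12 sham libraries, at 0.551 to 1.67 FPKM, and in 3 of 12 UUO libraries, at up to 0.626 FPKM. A value listed at 0 can be a failed estimate.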

How the data were processed

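RNA of whole left kidneys was sequenced as 24 stranded libraries of Trizol extracts, per the labels' protocols. The values deposited by the authors are FPKM per gene and per transcript, as the file headers say. Tools named in the submitters' processing notes are cutadapt, HISAT2 and StringTie, with the build GRCm38, and no version is given there. For Aqp3, Aqp7 and Aqp11 the gene values lay close to transcript FPKM weighted by length over the exon union. Aqp11, whose main transcript is short beside its union, therefore reads low. For Aqp1, Aqp2, Aqp4 and Aqp6 the gene value equalled that of the 1 listed transcript, also where the union was longer (Aqp4 and Aqp6). Aqp9 had 0.357 to 0.631 FPKM in UUO vehicle libraries, where its listed transcript was at 0. Read counts are not used here; depth was estimated from the smallest steps of the transcript values, at 7970000 to 13550000 fragments per library, so no counting interval was computed. In some libraries the search first returned too small a step, and a rule added after seeing this took the doubled step.

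Genes with at least 1 FPKM in at least 4 of 24 libraries were tested with limma 3.58.1 (R 4.3.3) on log2(FPKM + 1), with 1 mean per group, a mean-variance trend, 18 residual degrees of freedom and Benjamini-Hochberg adjustment over 13127 genes, threshold 0.05, in 12 comparisons. The change on this scale understates that of low genes. The 7 genes, the gene lists, the alternatives and the rule for names were chosen with earlier results of these data known. The rule names the 7 genes, the 4 members of each list with the smallest p in the mean obstruction effect, Avpr2, Gata3, Elf5 and Nfat5, and the 3 genes nearest to each member. Not every gene chosen this way is reported here. Upk3a and Krt5, the motifs, the within-library ratios, the pooled form of their test and the 2 alternatives without doubted libraries were chosen after seeing the data.

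Alternatives were a pseudocount of 0.1 FPKM, no filter, median-of-ratios scaling, equal sums, a fit to the groups compared, a replicate block, and leaving out each library. Replicate numbers come from the titles. The columns of the vehicle libraries were assigned to their group only, and the numbers 1 to 4 used for them, also in the replicate block and the pairing check, are the last digits of the column names. Residuals of same-numbered libraries had a median correlation of 0.0036 over 60 pairs, 7 of them over 0.1, so the numbers were not taken to pair libraries. Differently numbered libraries had a median of 0.0011 over 180 pairs, 18 of them over 0.1. The highest value was 0.436 among same-numbered and 0.302 among differently numbered pairs, and whether single pairs share a factor was not tested.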

Additional observations from a re-analysis of the deposited data

Results flagged for a closer look

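Aqp4 in UUO early library 4 was 24.9 FPKM, while the other libraries of the group were at 2.16 to 5.43 FPKM. The gap to the nearest of them was 0.856 of the group's range, above Dixon's 95% limit for 4 samples. This was 1 of 42 groups of 4 examined, and about 1 group in 20 is flagged by chance. The summed skeletal muscle genes were at 3530 FPKM in this library, and their part in the Aqp4 value was not tested.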

How the results depend on the processing

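Under the alternatives listed with the methods, all 12 counts of genes past the threshold stayed within 1.5 times. The count was 7 in each for the mean obstruction effect and under vehicle, 5 or 6 under the early and 6 or 7 under the late course, and 0 in the 8 drug comparisons. The replicate block changed 0 of 84 calls. The block values of single genes equal those of the report by design, since each group holds each number once, so only the errors could differ. A further pair of alternatives was chosen after seeing the data. The first left out UUO early and UUO late library 4, with 6 genes past the threshold in UUO early against sham early and no other count moved. The second, tried after it, left out UUO early libraries 1, 2 and 4, with 3 genes there. Aqp2 (-1.74, adjusted p = 0.0623) and Aqp7 (-0.53, adjusted p = 0.124) no longer passed by limma, with the lone UUO early library assumed to vary like the other groups. Changes of sign occurred in 89 of 1484 recomputed values, 56 of them on leaving out 1 library. In all 89 neither value was past the threshold, and none of these 89 values exceeded 0.66 in size. Without UUO early and UUO late library 4, the sign changed in UUO early against UUO late for Aqp1 at 0.24, Aqp11 at 0.010 and Aqp7 at 0.067. In UUO early against UUO vehicle it changed for Aqp1 at 0.32, Aqp11 at 0.15 and Aqp7 at 0.068. In UUO late against UUO vehicle it changed for Aqp1 at 0.082, Aqp11 at 0.14 and Aqp7 at 0.00087. In the interaction of early course and surgery it changed for Aqp1 at 0.30, Aqp11 at 0.0065, Aqp3 at -0.081 and Aqp7 at 0.13. In the interaction of late course and surgery it changed for Aqp1 at 0.13. Without UUO early libraries 1, 2 and 4, the sign changed in UUO early against UUO late for Aqp1 at 0.66, Aqp11 at 0.38 and Aqp7 at 0.36. In UUO early against UUO vehicle it changed for Aqp1 at 0.51, Aqp11 at 0.33 and Aqp7 at 0.12. In the interaction of early course and surgery it changed for Aqp1 at 0.48, Aqp11 at 0.18 and Aqp7 at 0.19. Under median-of-ratios scaling, the sign changed in UUO early against UUO late for Aqp1 at 0.022 and Aqp7 at 0.020. In sham early against sham late it changed for Aqp1 at -0.0031. In sham late against sham vehicle it changed for Aqp1 at 0.11 and Aqp3 at 0.087. In the interaction of late course and surgery it changed for Aqp6 at -0.020. In sham early against sham vehicle it changed for Aqp7 at 0.014. With equal sums, the sign changed in the interaction of late course and surgery for Aqp1 at 0.0033 and Aqp3 at 0.068. In sham late against sham vehicle it changed for Aqp7 at -0.022. On leaving out 1 library at a time, other values ranged as follows. For UUO early against UUO late they ran for Aqp1 from -0.27 to 0.47, Aqp11 from -0.23 to 0.21, Aqp2 from -0.46 to 0.98, Aqp6 from -0.21 to 0.37 and Aqp7 from -0.27 to 0.31. For UUO early against UUO vehicle they ran for Aqp1 from -0.42 to 0.32, Aqp11 from -0.23 to 0.15, Aqp2 from -0.070 to 1.24 and Aqp7 from -0.44 to 0.068. For UUO late against UUO vehicle they ran for Aqp1 from -0.32 to 0.082, Aqp11 from -0.21 to 0.14, Aqp2 from -0.095 to 0.84, Aqp3 from -0.40 to 0.25 and Aqp7 from -0.36 to 0.00087. For the interaction of early course and surgery they ran for Aqp1 from -0.44 to 0.30, Aqp11 from -0.37 to 0.0065, Aqp3 from -0.14 to 0.50 and Aqp7 from -0.37 to 0.13. For the interaction of late course and surgery they ran for Aqp1 from -0.28 to 0.13 and Aqp3 from -0.33 to 0.31. For sham early against sham vehicle they ran for Aqp1 from -0.060 to 0.16, Aqp2 from -0.28 to 0.044 and Aqp7 from -0.11 to 0.0071. For sham late against sham vehicle they ran for Aqp1 from -0.13 to 0.094, Aqp3 from -0.16 to 0.030 and Aqp7 from -0.028 to 0.094. The causes were not tested. The number of fragments behind the lowest Aqp2, Aqp11, Aqp7 and Aqp4 values, about 30.4, 39.3, 49.2 and 58.1 by the depth estimate, limits their precision.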

Other observations

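Other aquaporin genes were low. Aqp9, a glycerol and water channel of liver and leukocytes, was listed at 0 to 0.046 FPKM in sham and at 0.357 to 1.39 FPKM in UUO libraries, and was not tested because it missed the filter. In the transcript table, Aqp5, which lies between Aqp2 and Aqp6, had 0.190 ± 0.276 FPKM in sham libraries and 0.375 ± 0.221 FPKM after obstruction (SD, n = 12). The level of Aqp8 was 0.420 ± 0.237 FPKM in sham libraries and 0.116 ± 0.116 FPKM after obstruction.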
